A study of Homo sapiens with 12 samples.

Results

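The genes described here are the 35 that make, activate, store and release fatty acids: the enzymes of fatty acid synthesis, elongation and desaturation, the acyl-CoA synthetases, the enzymes of triglyceride assembly, and the coat proteins and lipases of the lipid droplet, with 2 transcription factors that drive the pathway. They were taken as a list of symbols and matched by Ensembl identifier to the deposited expression table, in which all 35 of them were found among 63036 identifiers. Messenger RNA was measured by poly(A)-selected RNA-seq in 12 libraries of HCT116 and HCT15, both established human colorectal carcinoma lines. Both lines were sequenced as labelled controls and after overexpression of RNF26, a ubiquitin ligase anchored in the endoplasmic reticulum, giving 4 groups of 3 libraries. The labels give no vector or promoter for the overexpression, no treatment of the controls, and no word on whether a group was a clone or a pool. The comparisons asked how these genes differed with RNF26 within each line, whether that difference was of the same size in both lines, and how the control lines differed.

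Fatty acids are built from acetyl-CoA in the cytosol. ATP citrate lyase and acetyl-CoA synthetase supply the acetyl-CoA, acetyl-CoA carboxylase turns it into malonyl-CoA, and fatty acid synthase joins these units into palmitate, which elongases and desaturases then lengthen and unsaturate. Acyl-CoA synthetases activate the products, acyltransferases and lipins build triglyceride from them, and perilipins coat the droplets in which it is stored, until lipases release the fatty acids again. The transcription factor SREBP1, encoded by SREBF1 and processed from a precursor in the endoplasmic reticulum membrane, switches on many of the synthesis genes, and many colorectal carcinomas make fatty acids themselves.

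Values are TPM (transcripts per 1000000), a unit that divides out sequencing depth, so no counting interval can be given. Between 13582 and 14135 genes reached 1 TPM in a library. RNF26 itself had 15.6 to 18.4 TPM in HCT116 controls and 255 to 334 in HCT116 RNF26 cells, and 26.4 to 27.8 and 53.5 to 54.6 in the corresponding HCT15 groups, so the HCT15 rise was 2.01-fold and the HCT116 rise 17.6-fold. Of 11 epithelial markers 6 to 9 had a mean of 1 TPM or more in each group, with a summed level of 2726 to 3219 TPM in HCT116 libraries, 4824 to 5602 in HCT15 controls and 4361 to 4547 with RNF26 in HCT15, while CDX1 was at 0 in 3 of the groups and at most 0.07 TPM in the remaining one. KRT8, KRT18 and KRT19 made up most of that sum, and single markers moved differently in HCT15. VIL1 had 57.8 to 97.7 TPM in controls and 25.4 to 26.4 with RNF26, and CDX2 22.8 to 34.3 and 7.07 to 13.0. CDH1, KRT8, KRT19 and CDH17 were lower with RNF26 in HCT15 as well, without overlap. EPCAM and KRT18 overlapped between the HCT15 groups. LGALS4 went the other way, from 0.26 to 0.51 TPM in controls to 0.89 to 1.81 with RNF26. None of 6 adipocyte markers reached a mean of 1 TPM in any group, and their sum was 0.12 to 1.01 TPM, so the markers of the cell type best known for these genes were near 0. Lists for hepatocytes, fibroblasts, leukocytes and endothelial cells summed to at most 14.9 TPM each in any library. The part of the epithelial marker levels in the results below was not tested. Cytosolic ribosomal protein genes took 25.0 to 26.1% of TPM in HCT15 RNF26 cells and 16.6 to 22.9% in HCT15 controls, against 19.9 to 20.7% in HCT116. The third HCT15 control stood apart, with the lowest ribosomal share and 25.9% of TPM in mitochondrially encoded genes, against 16.4 and 17.7% in the other HCT15 controls.

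All 35 genes passed the filter on low values (3 or more of the 12 libraries at 1 TPM or above), which left 15584 genes for testing. ELOVL5 and PLIN2 passed through HCT116 alone, with at most 0.15 and 0.26 TPM in any HCT15 library. They had almost no room to fall with RNF26 in HCT15. MGLL, with 0.46 to 1.69 TPM in HCT15, also passed only with the HCT116 libraries. Differences were tested with limma on log2(TPM + 1), a scale that understates the change of low genes, and a gene was called when its Benjamini-Hochberg adjusted p over all tested genes was under 0.05. The labels do not say whether the 3 libraries of a group came from separate cultures, so the p-values reflect only how far these libraries scatter, and that scatter may be technical. In bulk RNA, fewer cells of a kind and less RNA per cell cannot be told apart.

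In HCT116 none of the 35 genes was called with RNF26, either higher (0.00642% of all tested genes, RNF26 alone) or lower (0.0%). None had an unadjusted p under 0.05 in limma, against 657 of the 15584 genes, and none was called under any of 25 other settings. The groups did not overlap for ME1, FADS1 and ACSL4, which were higher with RNF26 in every library (7.25% of all genes), nor for ELOVL1, ACSL5 and PLIN2, which were lower (5.56%). The 95% intervals of the 35 differences all included 0; that of FASN reached from -0.38 to 0.16 and that of SREBF1 from -0.08 to 0.28 on the log2 scale.

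In HCT15, 17 of the 35 genes fell with RNF26 and 3 rose, while 15 did not pass (36.6% of all tested genes were called). Among the 15 were ELOVL5 and PLIN2, which were near 0 in every HCT15 library and could hardly be called lower. Those that fell were 48.6% of the 35, against 31.2% of all tested genes, and those that rose 8.57%, against 5.39%. Falls were common over the whole HCT15 comparison, and the median log2 change was -0.24 over the 35 genes and -0.17 over all genes, a distance of -0.07. The genes that fell most were FASN, SREBF1, PLIN3 and ACLY, each at least 0.82 further down than the median gene. With the libraries rescaled by median ratios, which brings the median gene to 0.0, the split was 6 rises and 11 falls (17.1% and 31.4% of the 35, against 14.4% and 16.7% of all tested genes). With quantile normalization it was 6 and 9 (17.1% and 25.7%, against 14.6% and 16.2%). When the mitochondrially encoded and ribosomal protein genes were taken out and TPM rescaled, it was 5 rises and 14 falls (7.97% and 20.5% of all tested genes). The fall of SREBF1, ACLY, FASN, SCD, FADS2, PLIN3 and PNPLA2 and the rise of ABHD5 were called in all 25 other settings. Without the third HCT15 control 17 genes fell and 1 rose (48.6% and 2.86% of the 35, against 28.8% and 4.19% of all tested genes). The plot of effects by line sets the estimates of both lines side by side.

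**Figure D1:**
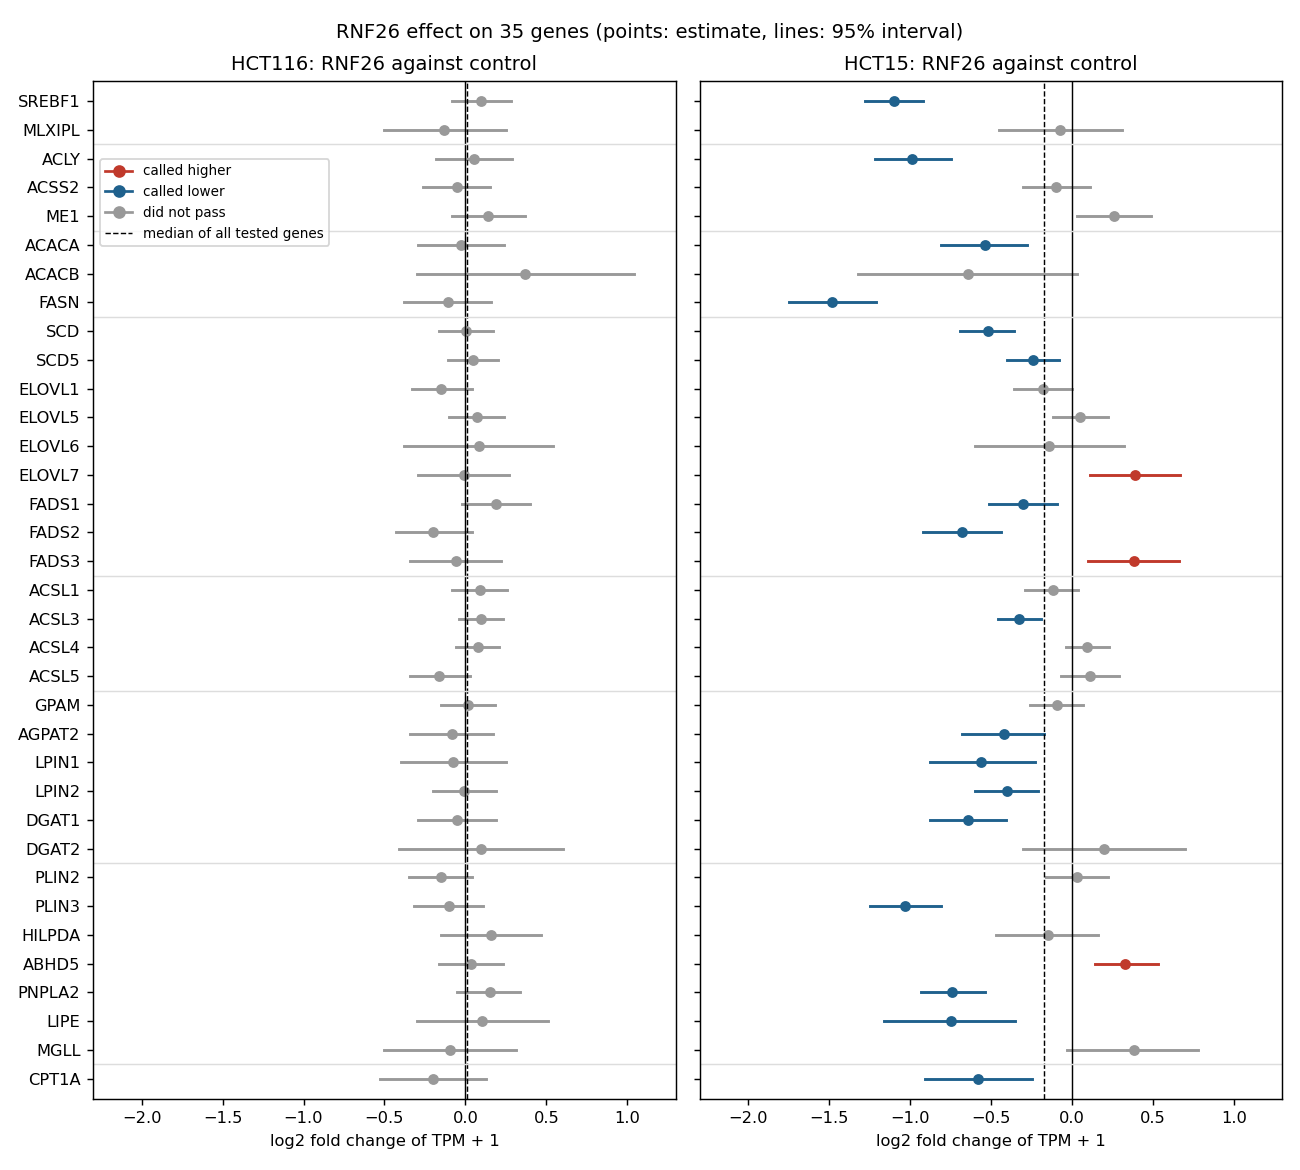
Estimated RNF26 effect (log2 fold change of TPM + 1, horizontal axis) for the 35 genes, ordered by role, in HCT116 (left) and HCT15 (right); points are limma estimates, lines 95% intervals, colours the call, and the dashed line the median of all tested genes. In HCT116 every interval includes 0, while in HCT15 17 genes lie below and 3 above, with FASN lowest at -1.48.

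Of the regulators, SREBF1 (ENSG00000072310, GRCh38, chr17:17810399-17837002, minus strand) was measured in HCT15 at 21.3, 20.8 and 20.5 TPM in the controls and at 8.81, 9.34 and 9.47 with RNF26. All RNF26 libraries lay below all controls, by far more than the spread within either group. SREBF1 fell by 1.10 on the log2 scale (SE 0.0816, limma adjusted p = 2.65e-05). In HCT116 its levels overlapped, at 21.4, 25.5 and 22.0 TPM in controls and 23.7, 26.9 and 23.1 with RNF26. MLXIPL, which encodes the carbohydrate-responsive factor ChREBP, stood at 10.3, 9.49 and 11.7 TPM in HCT15 controls and 10.3, 11.0 and 8.57 with RNF26, groups that overlapped (log2 change -0.072, adjusted p = 0.797). The SREBF1 gene overlaps RAI1 on the opposite strand; the library kit keeps strand, but whether the quantification used it is not stated. The same limit holds for ACSS2, ACACA, FADS1, FADS2, ACSL5, DGAT1, ABHD5 and MGLL, which also overlap coding genes on the opposite strand. FADS2 and ACSL4 overlap coding genes on their own strand, FEN1 and KCNE5, which strand cannot separate.

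Of the 3 genes of acetyl-CoA and NADPH supply 1 fell in HCT15. ACLY, which splits citrate into acetyl-CoA and is a target of SREBP1, had 58.2, 46.2 and 63.6 TPM in HCT15 controls and 26.8, 28.1 and 27.6 with RNF26. The RNF26 libraries lay close together and below all controls. ACLY fell by 0.99 (SE 0.107, limma adjusted p = 9.25e-05), a 2.04-fold difference of the means. ACSS2, which makes acetyl-CoA from acetate, was at 26.3 ± 2.74 and 24.6 ± 2.6 TPM (SD, n = 3 each), with overlap (log2 change -0.096, limma adjusted p = 0.462). ME1, malic enzyme, a source of the NADPH that synthesis uses, was at 22.4 ± 3.66 and 26.8 ± 2.25 TPM (SD, n = 3 each), with a log2 change of 0.26 and a limma adjusted p of 0.0721. ME1 was called higher with median-ratio scaling, with quantile normalization, without mitochondrial and ribosomal protein genes, and with the correction for GC content and length.

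In the synthesis step itself, FASN (ENSG00000169710, chr17:82078333-82098332, minus strand), the fatty acid synthase gene, had 17.2, 17.8 and 17.5 TPM in HCT15 controls and 6.08, 5.67 and 5.17 with RNF26. The 3 libraries of each group lay close together, and the groups far apart. FASN fell by 1.48 (SE 0.123, limma adjusted p = 3.8e-05), a 3.1-fold difference of the means and the largest fall among the 35 genes. In HCT116 FASN was more abundant and its groups overlapped, at 57.0, 60.2 and 53.2 TPM in controls and 57.4, 60.9 and 41.3 with RNF26, where the third RNF26 library was the lowest. ACACA, the cytosolic acetyl-CoA carboxylase that feeds the synthase, had 31.7, 24.7 and 32.5 TPM in HCT15 controls and 17.9, 23.2 and 18.9 with RNF26. It fell by 0.54 (SE 0.121, limma adjusted p = 0.00509), a call that ended with quantile normalization (adjusted p = 0.0517). ACACB, the mitochondrial-surface carboxylase whose malonyl-CoA restrains fatty acid oxidation, was low, at 3.48, 2.27 and 2.22 TPM in controls and 0.95, 1.22 and 1.87 with RNF26. Its groups did not overlap, yet its difference of -0.64 (limma adjusted p = 0.127) did not pass.

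Of the 9 elongases and desaturases 4 fell in HCT15 and 2 rose. SCD, the main stearoyl-CoA desaturase, which puts the first double bond into saturated fatty acids, had 58.8, 54.4 and 61.8 TPM in HCT15 controls and 40.5, 44.2 and 36.3 with RNF26, and fell by 0.52 (SE 0.0751, limma adjusted p = 0.000399). The same gene in HCT116 had 325, 329 and 325 TPM in controls and 338, 332 and 311 with RNF26, with overlap. Every HCT116 library was thus far above every HCT15 library. SCD5, the other stearoyl-CoA desaturase, fell from 11.7 ± 0.0265 to 9.74 ± 0.586 TPM (SD, n = 3 each), by 0.24 (SE 0.071, limma adjusted p = 0.0216); this is -0.07 from the median gene, the call ended in 9 of the 25 other settings, and with quantile normalization the sign turned.

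FADS1 and FADS2 make polyunsaturated fatty acids, and they lie together with FADS3 on chromosome 11. FADS2, the delta-6 desaturase, had 7.41, 6.92 and 7.68 TPM in HCT15 controls and 3.95, 4.55 and 4.11 with RNF26, and fell by 0.68 (SE 0.107, limma adjusted p = 0.000688). FADS1, the delta-5 desaturase, had 7.06, 6.37 and 7.93 TPM in controls and 5.48, 6.25 and 5.01 with RNF26, and fell by 0.30 (limma adjusted p = 0.0279), a call that ended in 11 of the 25 other settings. FADS3, the remaining desaturase of the cluster, had 18.8, 15.9 and 16.6 TPM in controls and 22.0, 23.7 and 21.8 with RNF26, and rose by 0.38 (limma adjusted p = 0.0394), a call that ended in 7 of the settings, among them the fit without the third HCT15 control. So within 1 cluster 2 neighbours fell and the third rose. The annotated spans of FADS1 (chr11:61799625-61829318, minus strand) and FADS2 (chr11:61792980-61867354, plus strand) overlap on opposite strands, so reads of 1 may have been assigned to the other. FADS3 (chr11:61873519-61892051, minus strand) lies beside them. The coding gene FEN1 overlaps FADS2 on the same strand, where strand cannot separate their reads.

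Among the elongases ELOVL7, which lengthens long-chain fatty acids, had 5.80, 7.10 and 5.77 TPM in HCT15 controls and 7.71, 10.1 and 7.67 with RNF26, and rose by 0.39 (limma adjusted p = 0.031), a call that ended in 5 of the settings, again including the fit without the third HCT15 control. FADS3, ELOVL7 and ABHD5 are the only risers, and their library values are given for that reason, after they were seen. ELOVL1, an elongase of very long chains, was the most abundant of the 35 genes in HCT15, at 104 ± 13.5 TPM in controls and 90.8 ± 2.79 with RNF26 (SD, n = 3 each; adjusted p = 0.106 in limma). ELOVL6, which takes palmitate to stearate, varied widely in HCT15, from 13.1 to 21.7 TPM in the controls and from 13.2 to 20.5 with RNF26 (limma adjusted p = 0.65).

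Of the 4 long-chain acyl-CoA synthetases, which activate fatty acids, 1 fell in HCT15. ACSL3, a droplet-associated synthetase, had 21.6, 23.1 and 22.7 TPM in HCT15 controls and 16.8, 18.4 and 18.0 with RNF26, and fell by 0.33 (SE 0.0624, limma adjusted p = 0.00215); with median-ratio scaling or quantile normalization the call ended, with a largest adjusted p of 0.34. ACSL1 overlapped between the groups, at 11.6, 11.6 and 12 TPM in controls and 10.02, 11.7 and 10.4 with RNF26 (limma adjusted p = 0.239). ACSL4, which prefers arachidonate, had 25.9, 27.3 and 28.6 TPM in controls and 30.2, 29.7 and 27.5 with RNF26 (limma adjusted p = 0.28), and ACSL5, a synthetase of the gut epithelium, had a log2 change of 0.11 (limma adjusted p = 0.333). Both were called higher with median-ratio scaling and with quantile normalization.

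Of the 6 genes of triglyceride assembly 4 fell in HCT15. DGAT1, which with DGAT2 adds the last acyl chain, had 24.5, 21.8 and 16.9 TPM in HCT15 controls and 13.3, 12.9 and 12.8 with RNF26. The RNF26 libraries lay close together and below the lowest control, which was the third. DGAT1 fell by 0.64 (SE 0.108, limma adjusted p = 0.000981), a call that ended with the correction for GC content and length, with a largest adjusted p of 0.0836. The lipins, which make diacylglycerol from phosphatidate, fell as a pair: LPIN2 had 7.64, 7.67 and 7.48 TPM in controls and 5.13, 5.70 and 5.71 with RNF26 (by 0.40, limma adjusted p = 0.00483). LPIN1 had 6.18, 6.70 and 7.98 TPM in controls and 4.27, 4.74 and 4.14 with RNF26 (by 0.56, limma adjusted p = 0.0122). Both lipin calls ended with median-ratio scaling and with quantile normalization. AGPAT2, an acyltransferase of the second step, fell by 0.42 (limma adjusted p = 0.015), a call that ended in 8 of the 25 settings. GPAM, the mitochondrial acyltransferase of the first step, overlapped, at 6.59, 6.69 and 6.83 TPM in controls and 6.33, 6.60 and 5.76 with RNF26 (limma adjusted p = 0.375). DGAT2 was at 3.73 ± 0.443 and 4.42 ± 0.181 TPM (SD, n = 3 each; limma adjusted p = 0.546), and made up 25.4% of the summed TPM of both DGAT genes in HCT15 RNF26 cells.

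At the droplet, PLIN3 (ENSG00000105355, chr19:4838341-4867768, minus strand), a perilipin that moves from the cytosol onto nascent droplets, had 99.3, 77.3 and 91.8 TPM in HCT15 controls and 43.9, 41.2 and 44.3 with RNF26. Even the lowest control was far above the highest RNF26 library. PLIN3 fell by 1.03 (SE 0.0993, limma adjusted p = 5.67e-05), a 2.07-fold difference of the means, while in HCT116 it had 74.2, 77.0 and 73.4 TPM in controls and 67.3, 79.2 and 63.0 with RNF26, with overlap. Of the droplet lipases, PNPLA2 and LIPE fell as well. PNPLA2, the adipose triglyceride lipase ATGL, had 24.9, 21.5 and 25.0 TPM in HCT15 controls and 14.6, 13.0 and 14.0 with RNF26, and fell by 0.74 (SE 0.0883, limma adjusted p = 0.000147). LIPE, the hormone-sensitive lipase, had 6.39, 6.54 and 5.74 TPM in controls and 3.19, 3.30 and 3.36 with RNF26, and fell by 0.75 (SE 0.185, limma adjusted p = 0.00852), a call that ended with the correction for GC content and length (largest adjusted p 0.213). ABHD5, which encodes CGI-58, the activator of ATGL, moved the other way: it had 9.70, 9.80 and 9.81 TPM in controls and 12.3, 12.5 and 12.9 with RNF26, and rose by 0.33 (SE 0.0894, limma adjusted p = 0.0131). Every RNF26 library stood above every control, so a lipase and its activator changed in opposite directions. ABHD5 overlaps ANO10 on the opposite strand, so reads of ANO10 may be among its own. HILPDA, an inhibitor of ATGL, had 15.9, 14.6 and 10.4 TPM in controls and 12.3, 11.99 and 11.7 with RNF26 (limma adjusted p = 0.439). The lipase MGLL, which frees the last fatty acid from monoglyceride, was at 0.587 ± 0.219 and 1.10 ± 0.551 TPM (SD, n = 3 each), with a limma adjusted p of 0.133. It was called higher with the correction for GC content and length, without and with the replicate block (limma adjusted p = 0.0149 and 0.00873). The same held without the first HCT15 RNF26 library (limma adjusted p = 0.0378).

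CPT1A, which passes fatty acids into mitochondria for oxidation, had 8.76, 8.33 and 7.91 TPM in HCT15 controls and 4.39, 5.61 and 5.80 with RNF26, without overlap. It fell by 0.58 (SE 0.149, limma adjusted p = 0.0108), and the call ended with quantile normalization and with the replicate block and GC correction together (largest adjusted p 0.0647). Counting by separation, 18 of the 35 genes had every HCT15 RNF26 library below every control (35.9% of all tested genes) and 4 had every one above (7.23%). The summed TPM of the 35 genes was 747 ± 23.2 in HCT15 controls and 577 ± 19.9 with RNF26, and 1232 ± 21.9 and 1217 ± 65.8 in HCT116 (SD, n = 3 each).

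**Figure D2:**
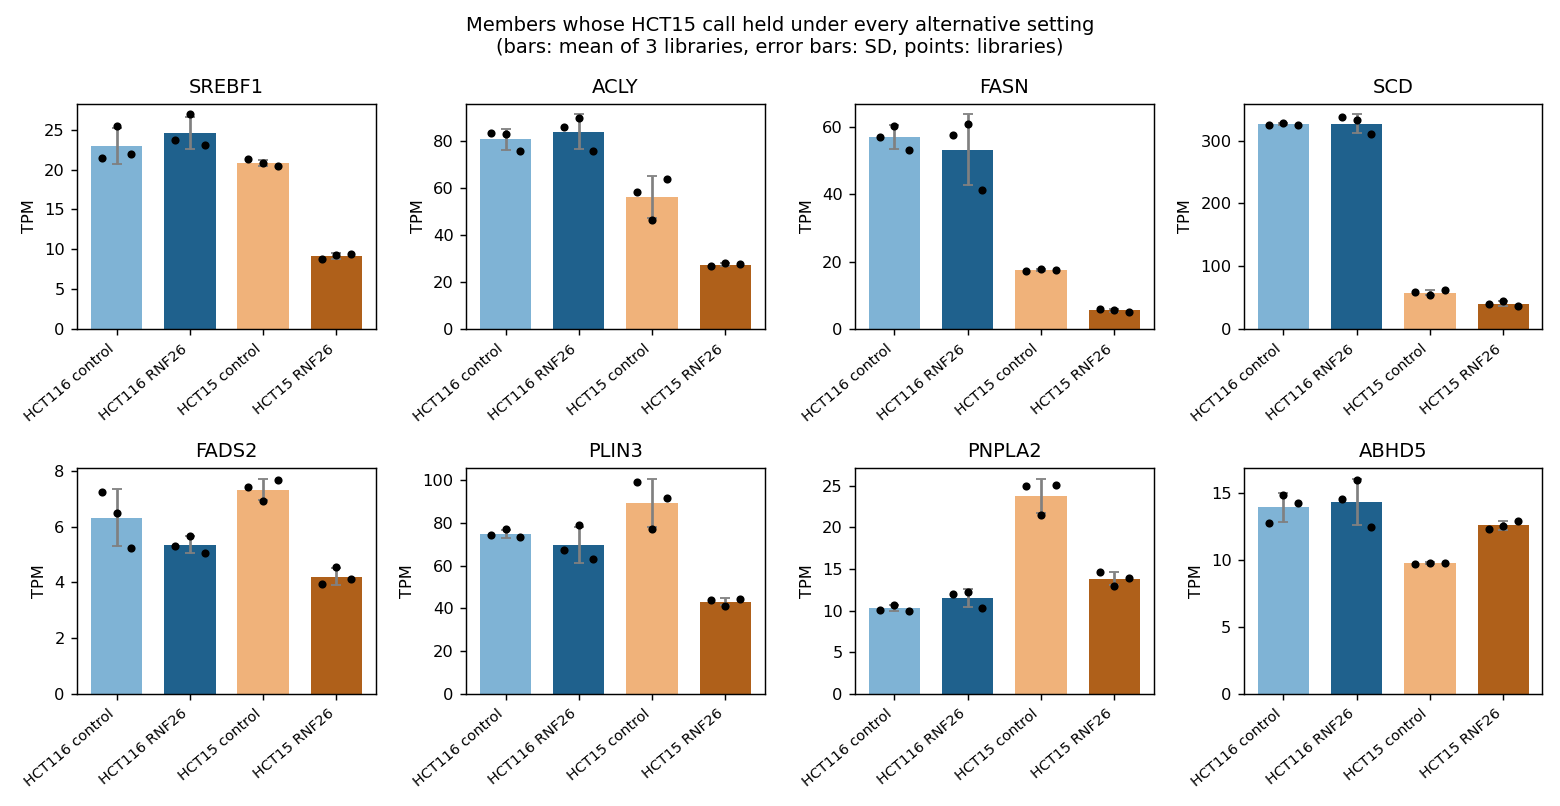
Level in TPM (vertical axes, each from 0) of the 8 genes whose HCT15 call held in all 25 other settings, in the 4 groups; bars are means, error bars SD, points the 3 libraries. The HCT15 RNF26 points lie apart from the HCT15 control points in every panel, below them for 7 genes and above them for ABHD5, while the HCT116 groups are close together.

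Promoter windows from RefSeq (GRCh38.p14) were matched for 30 of the 35 genes, and their 250 bases before the start were searched on both strands for 4 motifs. FASN, DGAT1, DGAT2, HILPDA and MGLL were not matched. The sterol response element TCACNCCAC, the site known for SREBP, was found in 2 of the 47 windows of these genes (4.26%), in ACSL1 and PNPLA2, and in 0.883% of all 35116 windows. The E-box CACGTG was found in 6.38% of the genes' windows and 6.34% of all, the CCAAT box CCAAT in 34.0% and 32.0%, and the GC box GGGCGG in 72.3% and 42.6%; none of these motifs contains another. Windows are printed for 3 genes that fell in HCT15 in every setting, from the supply, desaturation and lipolysis steps, to show where these letters lie. Capitals mark CCAAT, or its reverse complement ATTGG, in ACLY (chr17:41919023-41919272, minus strand, 65 and 23 bases before the start) and in SCD (chr10:100346983-100347232, plus strand, 229 and 186 bases before the start). In PNPLA2 (chr11:818664-818913, plus strand) they mark the sterol response element, read on the opposite strand, 153 bases before the start. These matches are descriptions of the letters in these windows.
ACLY: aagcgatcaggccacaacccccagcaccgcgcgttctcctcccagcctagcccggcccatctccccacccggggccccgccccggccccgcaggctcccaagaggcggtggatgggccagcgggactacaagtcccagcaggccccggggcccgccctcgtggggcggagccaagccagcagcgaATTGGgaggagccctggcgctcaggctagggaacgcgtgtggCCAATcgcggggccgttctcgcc
SCD: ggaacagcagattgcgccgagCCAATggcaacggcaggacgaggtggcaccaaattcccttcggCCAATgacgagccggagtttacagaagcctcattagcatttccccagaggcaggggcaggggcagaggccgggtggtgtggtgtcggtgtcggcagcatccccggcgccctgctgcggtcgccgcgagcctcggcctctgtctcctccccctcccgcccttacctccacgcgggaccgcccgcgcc
PNPLA2: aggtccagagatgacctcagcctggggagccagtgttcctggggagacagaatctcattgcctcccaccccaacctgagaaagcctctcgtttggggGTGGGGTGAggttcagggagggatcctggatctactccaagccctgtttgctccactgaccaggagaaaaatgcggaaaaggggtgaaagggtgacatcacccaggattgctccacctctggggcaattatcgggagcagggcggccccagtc

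Whether the RNF26 effect had the same size in both lines was tested as the difference of the effects, HCT15 minus HCT116. At a limma adjusted p under 0.05, that difference was called below 0 for 12 of the 35 genes (18.7% of all tested genes) and above 0 for none (1.8%). An unadjusted limma p under 0.05 was found for 20 of the 35 genes, against 5244 of all 15584 tested genes. The difference was largest in size for FASN at -1.37 (SE 0.174, adjusted p = 0.00133 in limma), the log2 effect being -1.48 in HCT15 and -0.11 in HCT116. For SREBF1 the difference was -1.20 (SE 0.115, limma adjusted p = 0.000743). Likewise ACLY differed by -1.04 (limma adjusted p = 0.00201), PLIN3 by -0.92 (0.0024) and PNPLA2 by -0.88 (0.00188). These 5 genes were called in all 24 settings that give a difference. The 3 genes that rose in HCT15 did not pass here, with differences of 0.40 for ELOVL7, 0.44 for FADS3 and 0.30 for ABHD5 (unadjusted limma p 0.045, 0.0348 and 0.0364). With median-ratio scaling 5 were called below and 4 above 0 (14.3% and 11.4% of the 35, against 7.35% and 5.99% of all tested genes), the latter being ELOVL7, FADS3, ACSL5 and ABHD5. Without 1 library the calls ran from 7 below, without the second HCT116 RNF26 library (11.6% of all tested genes), to 16, without the third (20.1%). Of the 7 genes called besides the 5 named above, FADS2 lost its call in 15 of the 24 settings, the replicate block among them (adjusted p up to 0.484), FADS1 in 11, LPIN2 in 20, LIPE in 18, DGAT1 in 5, SCD in 3 and ACSL3 in 2. The amount of RNF26 differed between the lines, as given above, and cannot be told apart from the line.

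Comparing HCT15 with HCT116 controls, 23 of the 35 genes were called in either direction (65.7%), near the 69.5% of all tested genes. Of the 23, 13 were lower (26.0% of all tested genes) and 10 higher (43.6%), and the median gene of the 35 stood at -0.07, against 0.22 over all genes. ELOVL5, PLIN2 and MGLL, among the 13, passed the filter only through HCT116, the line in which they were higher. The HCT15 control libraries are shared with the RNF26 comparison in HCT15, so the results of these comparisons are not independent. Without regard to the test, 15 of the 35 genes had every HCT15 control below every HCT116 control (27.1% of all tested genes) and 12 had every one above (44.8%). The 13 lower calls held in all settings in which the gene was tested, and of the 10 higher calls 7 did, those of MLXIPL, ACACB and PLIN3 being lost in several. The split moved with the scaling. It was 17 lower and 7 higher with median-ratio scaling (32.0% and 37.1% of all tested genes), 19 and 8 with quantile normalization (33.6% and 35.1%), and 19 and 7 with the GC and length correction (34.3% and 36.3%). SREBF1 and ELOVL7 were among the lower genes gained in each of these, and ELOVL1, FADS3, ACSL4, DGAT1 and CPT1A were each gained in 2 of them.

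ELOVL5, the elongase of polyunsaturated chains (ENSG00000012660, chr6:53267398-53349179, minus strand), was the gene furthest apart. Its level was 49.0, 51.5 and 52.6 TPM in HCT116 controls and 0.02, 0.02 and 0.11 in HCT15 controls, a log2 difference of -5.63 (SE 0.0773, limma adjusted p = 3.73e-13). With RNF26 the picture was the same, at 52.3, 55.6 and 53.0 TPM in HCT116 and 0.05, 0.15 and 0.06 in HCT15. A gene well expressed in every HCT116 library was thus close to 0 in all 6 HCT15 libraries. PLIN2 (ENSG00000147872, chr9:19108375-19149290, minus strand), the perilipin that coats droplets in most cell types outside fat, showed the same contrast. It had 24.4, 22.7 and 23.3 TPM in HCT116 controls and 0.10, 0.20 and 0.26 in HCT15 controls, a log2 difference of -4.37 (SE 0.0873, limma adjusted p = 6.06e-12). With RNF26 it had 21.1, 19.6 and 22.4 TPM in HCT116 and 0.19, 0.21 and 0.23 in HCT15. For both genes the pseudocount of 1 TPM sets the size of the difference; with the other settings it ran from -8.47 to -3.47 for ELOVL5 and from -6.40 to -2.46 for PLIN2.

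The 250 bases before the RefSeq starts of ELOVL5 and PLIN2 are printed because these genes were close to 0 in 1 line, and capitals mark the E-box that each holds, 211 bases before the start in ELOVL5 (chr6:53348951-53349200, minus strand) and 69 bases in PLIN2 (chr9:19127493-19127742, minus strand). The windows carry 21 and 28 CpG dinucleotides, and 30.2% and 15.9% of all windows carry at least as many.
ELOVL5: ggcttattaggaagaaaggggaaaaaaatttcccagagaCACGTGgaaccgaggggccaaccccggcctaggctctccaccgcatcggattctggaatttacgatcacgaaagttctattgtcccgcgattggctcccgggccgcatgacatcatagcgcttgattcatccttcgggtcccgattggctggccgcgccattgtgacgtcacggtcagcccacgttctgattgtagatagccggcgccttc
PLIN2: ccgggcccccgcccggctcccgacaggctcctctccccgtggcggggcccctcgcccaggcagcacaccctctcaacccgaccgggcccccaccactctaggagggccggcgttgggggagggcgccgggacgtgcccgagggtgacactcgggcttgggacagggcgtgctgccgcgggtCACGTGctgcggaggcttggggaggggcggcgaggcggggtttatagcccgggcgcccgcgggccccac

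Most genes around them were expressed in both lines. Within 250 kb of ELOVL5, in a set chosen after the values were seen, the HCT15 controls had 24.4 ± 2.76 TPM of FBXO9 and 5.73 ± 0.366 of ICK (also named CILK1), against 23.0 ± 1.92 and 5.72 ± 0.381 in HCT116 controls (SD, n = 3 each). GCLC was lower in HCT15, at 15.6 ± 0.654 against 27.2 ± 0.601 TPM (SD, n = 3 each; log2 difference -0.77), but far from 0, and GCM1 was at 0.04 TPM or less in the controls of both lines. Around PLIN2 the HCT15 controls had 34.5 ± 6.41 TPM of RRAGA, 26.1 ± 1.90 of HAUS6 and 20.4 ± 2.23 of DENND4C (SD, n = 3 each), against 34.7 to 35.8, 19.1 to 20.8 and 7.67 to 8.15 TPM in the HCT116 controls. RPS6, a ribosomal protein gene, was abundant in both lines. ADAMTSL1 and SAXO1 were under 1 TPM in both lines. The plot of neighbouring genes shows both regions.

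**Figure D3:**
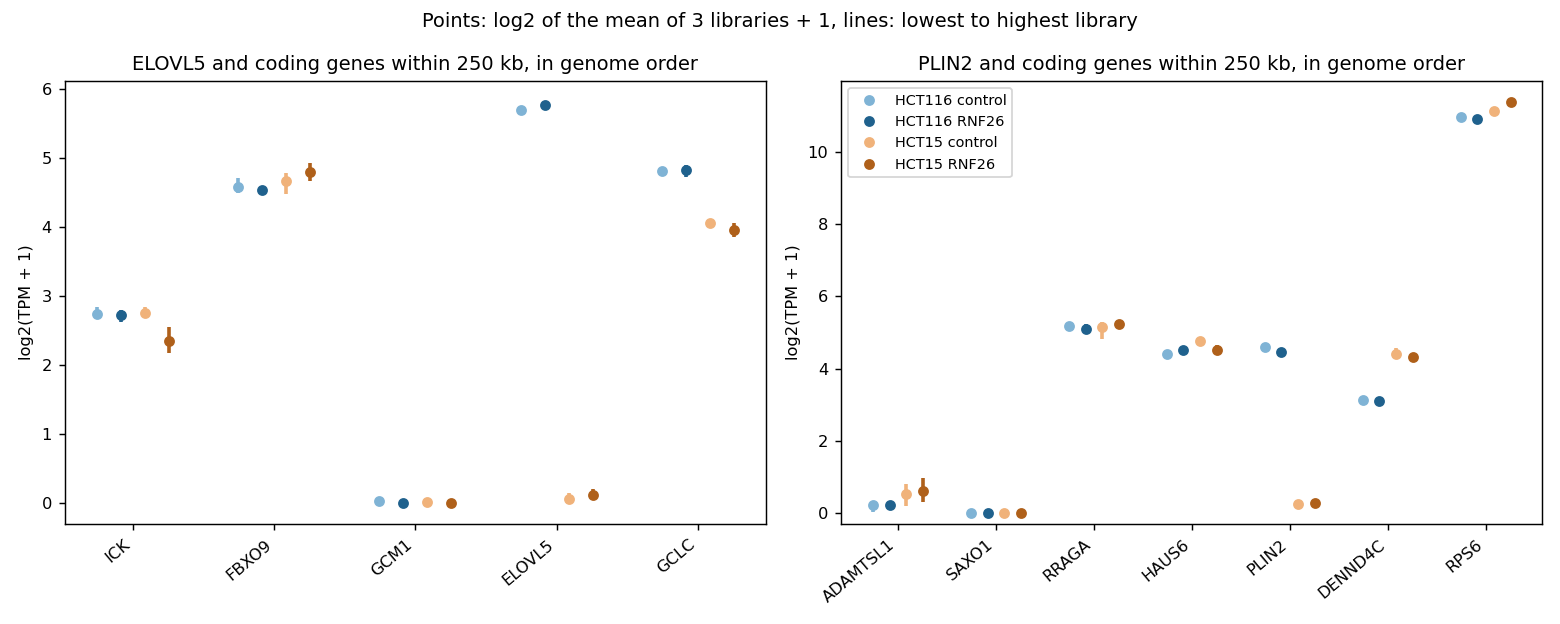
Level, as log2(TPM + 1) on the vertical axis, of ELOVL5 (left) and PLIN2 (right) and of the protein-coding genes within 250 kb of each, in genome order along the horizontal axis; points are group means of TPM on the log2 scale, lines reach from the lowest to the highest of 3 libraries. ELOVL5 and PLIN2 sit near 0 in both HCT15 groups, beside neighbours such as FBXO9 and RRAGA with similar levels in both lines.

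SCD was the most abundant of the 35 genes in HCT116 controls, at 326 ± 2.01 TPM, against 58.3 ± 3.69 in HCT15 controls (SD, n = 3 each), a log2 difference of -2.47 (SE 0.0751, limma adjusted p = 1.69e-10) and a 5.59-fold difference of the means. FASN was lower in HCT15 as well (log2 difference -1.64, limma adjusted p = 3.31e-07), and so was FADS1 (-1.36, 1.85e-07). ACLY, ACACA and ABHD5 were lower too, with log2 differences of -0.53, -0.62 and -0.47. Among the activating and esterifying enzymes, those of ACSL3, ACSL5 and AGPAT2 were -1.21, -0.95 and -0.79. GPAM had 15.6, 15.3 and 15.2 TPM in HCT116 controls against the 6.59 to 6.83 of HCT15, a log2 difference of -1.09 (SE 0.0755, limma adjusted p = 1.77e-07). MGLL was low in both, at 2.14 ± 0.125 TPM in HCT116 and 0.587 ± 0.219 in HCT15 controls (SD, n = 3 each; log2 difference -0.99). SREBF1 itself did not pass, though its groups did not overlap, at 22.9 ± 2.21 against 20.8 ± 0.389 TPM (SD, n = 3 each; limma adjusted p = 0.181). It was called lower with median-ratio scaling (limma adjusted p = 0.00298), quantile normalization (0.000427) and the GC and length correction without and with the replicate block (0.000387 and 0.00065).

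Among the genes higher in HCT15 controls were both lipases of stored triglyceride and diglyceride. PNPLA2 had 10.1, 10.7 and 9.99 TPM in HCT116 controls against the 21.5 to 25.0 of HCT15, a log2 difference of 1.14 (SE 0.0883, limma adjusted p = 4.57e-07). LIPE was higher by 1.29 (6.9e-05), DGAT2 by 1.11 (0.00106) and LPIN2 by 1.08 (7.27e-07), the HCT116 controls having 3.17, 3.32 and 2.73 TPM of LPIN2. ACSL1 had 5.77, 5.35 and 5.63 TPM in HCT116 controls and was higher in HCT15 by 0.95 (SE 0.0759, limma adjusted p = 5.58e-07). ACSS2 was higher by 0.54 and SCD5 by 0.49. The calls of ACACB at 0.76, MLXIPL at 0.44 and PLIN3 at 0.25 were the least stable of the 10: ACACB's ended in 13 of 24 settings, MLXIPL's in 9 of 25 and PLIN3's in 17 of 25, and with the correction for GC content and length PLIN3 was at -0.077. Of the genes named in the RNF26 comparison, PNPLA2 and LIPE fell in HCT15 from a level above that of HCT116, FASN, SCD and ACLY from a level below it. The plot of control levels shows all 35 genes.

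**Figure D4:**
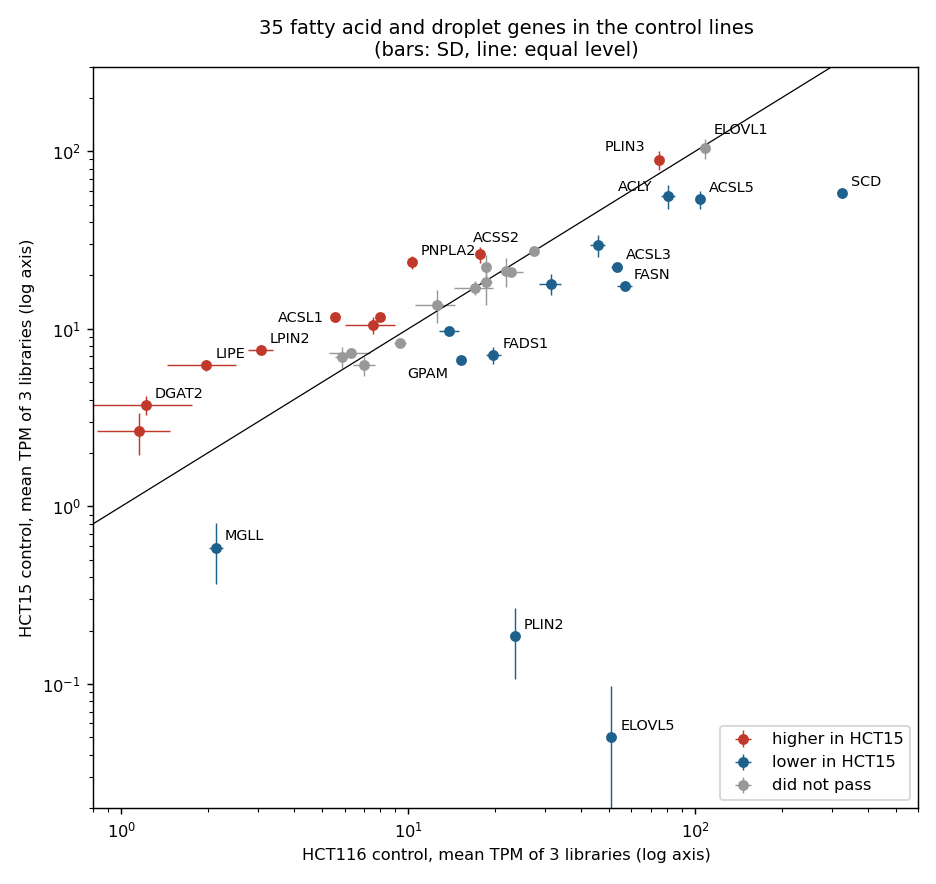
Mean TPM of the 35 genes in HCT15 controls (vertical log axis) against HCT116 controls (horizontal log axis); bars are SD over 3 libraries, the line marks equal levels, colours the call, and the bars of ELOVL5 and DGAT2 reach past the axes. ELOVL5 and PLIN2 lie far below the line at 0.05 and 0.187 TPM in HCT15, and SCD lies furthest right at 326 TPM in HCT116.

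The makeup of several enzyme families also differed between the lines, on the TPM scale, which allows for gene length. Of the summed TPM of the 4 elongases, ELOVL5 made up 27.5 ± 1.01% in HCT116 controls and 0.0419 ± 0.047% in HCT15 controls, and ELOVL1 58.6 ± 1.16% and 80.8 ± 4.04% (SD, n = 3 each). PLIN3 made up 76.1 ± 1.01% of the summed TPM of PLIN2 and PLIN3 in HCT116 controls and 99.8 ± 0.0987% in HCT15 controls (SD, n = 3 each), so PLIN3, which fell with RNF26, was nearly all of the perilipin message that HCT15 had among these genes. SCD5 was 2.39 ± 0.0442% of the SCD pair in HCT116 controls and 16.7 ± 0.857% in HCT15 controls (SD, n = 3 each). In the FADS cluster the share of FADS3 in HCT15 went from 54.2 ± 2.45% in controls to 69.7 ± 0.931% with RNF26, and that of FADS2 from 23.3 ± 0.856% to 13.0 ± 0.404% (SD, n = 3 each), with no overlap for either. In HCT116 FADS1 was the largest of the 3, at 46.0 ± 2.40% in controls and 51.4 ± 2.77% with RNF26 (SD, n = 3 each). These shares were not tested.

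**Figure D5:**
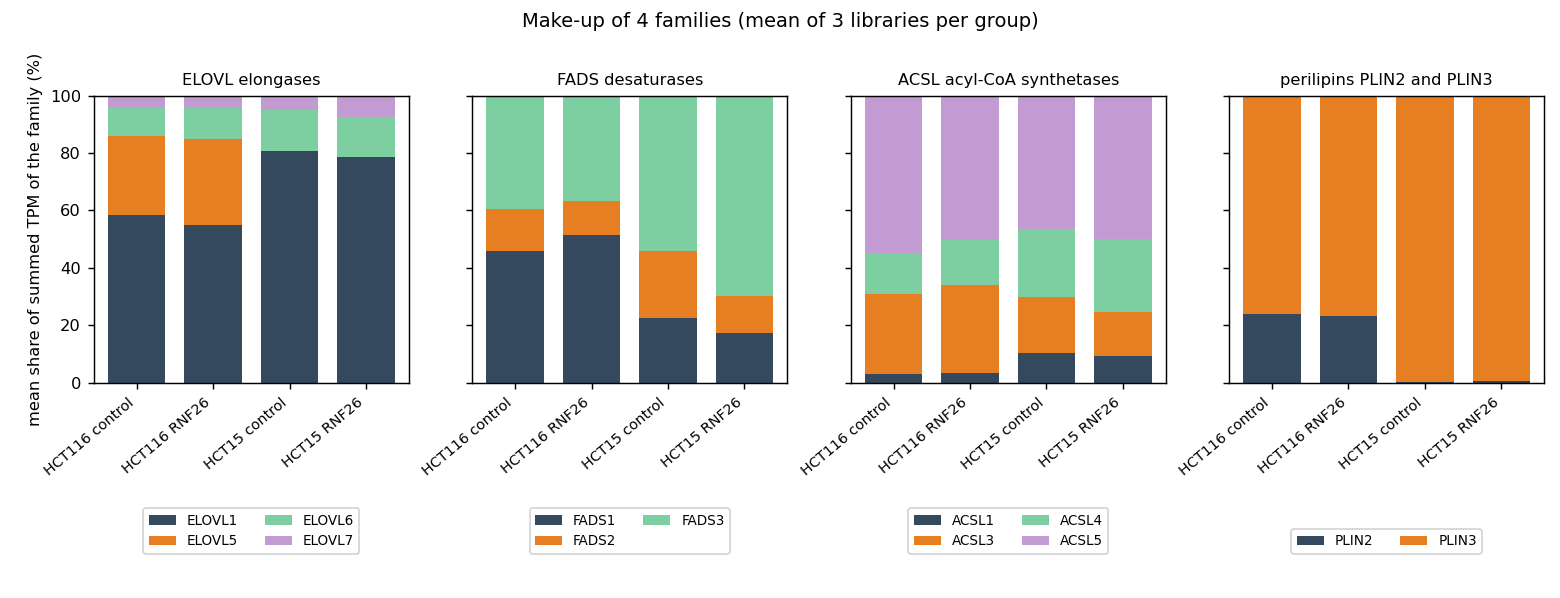
Makeup of 4 gene families as the share of their summed TPM in percent (vertical axis), as the mean of 3 libraries in each of the 4 groups. ELOVL5 and PLIN2 are visible in HCT116 alone, at 27.5 and 23.9% in controls, and the FADS3 segment grows in HCT15 with RNF26 from 54.2 to 69.7%.

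Other genes of these pathways, 67 in lists given by step, were looked at as well, and 51 passed the filter. With RNF26 in HCT15 these 51 gave 23 falls (45.1%, against 31.2% of all tested genes) and 1 rise (1.96%, against 5.39%). The remaining 27 did not pass. The median log2 change of the 51 was -0.30, against -0.17 over all genes. In HCT116 none of the 51 was called and 3 had an unadjusted p under 0.05 in limma, against 657 of all 15584 tested genes. Of the 6 genes listed for SREBP processing, which are SREBF2 and the genes that hold and cut the SREBP precursors, 4 fell. SREBF2, which encodes the cholesterol-regulating SREBP2, fell from 35.3 ± 1.41 to 17.2 ± 1.07 TPM (SD, n = 3 each), by 1.00 (limma adjusted p = 3.19e-05). INSIG1, which retains the precursors, fell from 15.8 ± 0.727 to 8.12 ± 0.86 TPM (SD, n = 3 each), by 0.88 (limma adjusted p = 3.83e-05). Of 6 cofactors of lipogenesis 4 fell, including SLC25A1, the mitochondrial citrate carrier (by 0.58), and MID1IP1, an activator of acetyl-CoA carboxylase (by 0.45), and 1 rose, PPARG, at 2.22 ± 0.196 and 3.11 ± 0.61 TPM (SD, n = 3 each). In the elongation cycle 1 of 6 fell, the reductase gene TECR (by 0.61). Another of the 6, ELOVL3, was at 0 in every HCT15 library and could not fall. The other acyltransferases and lipin of triglyceride assembly gave 4 falls of 7, with GPAT3 by 0.76 and AGPAT3 by 0.56, and all 4 tested genes of fatty acid uptake and binding fell, with the transporter SLC27A2 by 0.58 and the binding protein FABP5 by 0.59. Droplet proteins gave 1 fall of 4 (FITM2, by 0.53), mitochondrial fatty acid synthesis 1 of 4 (MCAT, by 0.54), and fatty acid oxidation 4 of 14 (CPT2 by 0.57, HADHA by 0.31). For oxidation that is 28.6%, near the 31.2% of all tested genes. Falls were 66.7% of the SREBP processing genes and of the cofactors, 57.1% for triglyceride assembly and 100% for uptake and binding. They were 16.7% for the elongation cycle, a share that counts ELOVL3, and 25.0% each for droplet proteins and mitochondrial synthesis. Lists other than oxidation hold only 4 to 7 tested genes.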

How the data were processed

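Expression values are TPM as the authors deposited them, 1 column for each of 12 libraries in a single table. The tools were RSEM, HISAT2, StringTie and fastp, per the submitters' processing notes, and the build GRCh38; their versions, roles and annotation are not stated there. Groups came from the sample titles. Symbols and positions came from GENCODE 29 by Ensembl identifier, promoter windows from RefSeq GRCh38.p14.

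Genes with 1 TPM or more in at least 3 libraries, 15584 in all, were tested as log2(TPM + 1) with limma 3.58.1 (R 4.3.3): 1 fit with a mean per group, contrasts, and eBayes with a trend (8 residual degrees of freedom, prior 3.09). Tests were two-sided with Benjamini-Hochberg adjustment over all tested genes. The 35 genes, the lists, the tests and the rule for values by library (per role, up to 3 genes by smallest adjusted p in HCT15 and 2 in the control lines) were chosen with earlier results of these data known. The fit was also run on simulated data with independent normal noise and few changed genes. That setting differs from the HCT15 comparison, where 36.6% of all tested genes were called, so it does not check the calls there. The 25 other settings changed the pseudocount (0.1 or 5), filter (none or 5 TPM), scaling, variance model or replicate block, corrected GC content and length by a spline (5 degrees of freedom), took out 120 mitochondrial and ribosomal protein genes, or left out 1 library.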

Additional observations from a re-analysis of the deposited data

Results flagged for a closer look

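For 12 genes the RNF26 effect differed between HCT15 and HCT116 by a limma test of the difference itself, adjusted over all tested genes, and in each the HCT15 effect was the lower one. Differences are log2 values, HCT15 minus HCT116. In synthesis and its regulation, SREBF1 differed by -1.20 (effects -1.10 and 0.097), ACLY by -1.04 (-0.99 and 0.054) and FASN by -1.37 (-1.48 and -0.11). Among the desaturases, SCD differed by -0.53 (-0.52 and 0.0025), FADS1 by -0.50 (-0.30 and 0.19) and FADS2 by -0.48 (-0.68 and -0.20). Activation and assembly gave ACSL3 at -0.42 (-0.33 and 0.098), LPIN2 at -0.40 (-0.40 and -0.0059) and DGAT1 at -0.59 (-0.64 and -0.051). At the droplet, PLIN3 differed by -0.92 (-1.03 and -0.10), PNPLA2 by -0.88 (-0.74 and 0.15) and LIPE by -0.86 (-0.75 and 0.10). The median difference over all tested genes was -0.18. FADS1 was higher with RNF26 in every HCT116 library and lower in every HCT15 library. SREBF1, ACLY, FASN, PLIN3 and PNPLA2 kept the call in all 24 other settings. LPIN2 and LIPE kept it in 4 and 6, with adjusted p from 0.0259 to 0.424 and from 0.0167 to 0.286. FADS2 kept it in 9 and FADS1 in 13, with adjusted p up to 0.484 and 0.273. DGAT1, SCD and ACSL3 lost it in 5, 3 and 2.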

How the results depend on the processing

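Of the recomputed counts of called genes, 176 stayed within 1.5 times of the report and 22 did not. A count of 0 in both was taken as unchanged. That covers every HCT116 count and most counts of differences above 0, so the tally overstates how stable the calls were. The share of all tested genes that were called moved with the settings too, and is given in brackets. Rises in HCT15 were 3 in the report (5.39%) and 1 with no filter (1.94%). They were 6 with median-ratio scaling (14.4%), 6 with quantile normalization (14.6%) and 5 without mitochondrial and ribosomal protein genes (7.97%). With the GC and length correction they were 6 (11.9%), and 7 with that correction and the replicate block (10.7%). Without 1 library they ran from 1 to 3, with 1 without the third HCT15 control (4.19%) or the second HCT15 RNF26 library (3.6%). Falls in HCT15 were 17 in the report (31.2%), 11 with median-ratio scaling (16.7%) and 9 with quantile normalization (16.2%). With the replicate block and GC and length correction they were 10 (15.1%). The difference of effects gave 12 genes below and 0 above 0 in the report (18.7% and 1.8%). With median-ratio scaling it gave 5 and 4 (7.35% and 5.99%), and with quantile normalization 5 and 4 (6.9% and 5.49%). With the GC and length correction it gave 7 and 2 (6.82% and 4.24%). With that correction and the block it gave 6 and 3 (4.79% and 2.86%). It gave 2 above without mitochondrial and ribosomal protein genes (2.77%). Without 1 library, 7 to 16 lay below (11.6% and 20.1%) and 0 to 1 above, with 1 without the first HCT15 control (1.28%). The separate fit of each line gives no difference.

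Signs turned for MLXIPL in HCT15 with the block and correction (0.43), for SCD5 in HCT15 with quantile normalization (0.020), for FADS3 between control lines with quantile normalization (-0.28), the correction (-0.27) and the correction with the block (-0.27), and for PLIN3 between control lines with the correction, with or without the block (-0.077). The cause was not tested. Deviations from the group means correlated weakly between same-numbered libraries of the arms. The correlations were -0.0424 to -0.0254 in HCT116 and 0.00895, 0.0135 and 0.146 in HCT15. Other-numbered pairs in HCT15 ran from -0.124 to 0.113. Correlations this low in 3 libraries per group cannot show whether the numbers pair the samples, so pairing is not known. The replicate block left 17 falls and 3 rises in HCT15 (29.9% and 5.22% of all tested genes). It gave 9 genes below 0 in the difference (16.6%). TPM holds no depth, so low levels such as those of ELOVL5 and PLIN2 in HCT15 carry an unknown counting error.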

Other observations

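Of 51 tested pathway genes outside the 35, 27 were higher in HCT15 than in HCT116 controls (52.9%, against 43.6% of all tested genes). Another 10 were lower (19.6%, against 26.0%). In either direction that is 72.5%, near the 69.5% of all tested genes. The genes named here were chosen after their values were seen. PPARG, a nuclear receptor that drives fat storage genes, had 31.3 ± 0.815 TPM in HCT116 controls and 2.22 ± 0.196 in HCT15 controls (SD, n = 3 each). The log2 difference was -3.33 (SE 0.105, limma adjusted p = 2.16e-10). PLIN2 is among the known targets of PPARG, but a link between their levels was not tested. ELOVL3, an elongase of saturated very long chains, had 8.67 ± 0.60 TPM in HCT116 controls (SD, n = 3) and was listed at 0 in every HCT15 library, control and RNF26. It passed the filter through HCT116 alone. FABP5, which carries fatty acids in the cytosol, was at 829.9 ± 10.8 and 245 ± 30.0 TPM (SD, n = 3 each), a log2 difference of -1.76 (limma adjusted p = 4.49e-09). The uptake transporter SLC27A2 was higher in HCT15, at 36.3 ± 2.46 TPM in HCT15 controls (SD, n = 3; log2 difference 1.47). Of 14 tested genes of fatty acid oxidation 10 were higher in HCT15 controls (71.4%, against 43.6% of all tested genes) and 3 lower, the former including HADHA, of the mitochondrial trifunctional protein, at 159 ± 5.56 against 85.9 ± 3.71 TPM (SD, n = 3 each; log2 difference 0.88), and CPT2 (0.72). These comparisons share their HCT15 control libraries with the RNF26 comparison in HCT15.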
